A study of Mus musculus with 96 samples.

Results

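The G1 and S phase cyclins and the kinases they activate were followed through serum stimulation as 9 genes, chosen by symbol from the 15895 genes of the deposited table: the D-type cyclins Ccnd1, Ccnd2 and Ccnd3 with Cdk4 and Cdk6, the E-type cyclins Ccne1 and Ccne2, cyclin A2 (Ccna2) and Cdk2. All 9 were measured in every library and none was lost to a filter on low values. The cells were primary fibroblasts from CF-1 mouse embryos at embryonic day 13, and the labels name no engineered allele and do not say how many embryos were pooled. They were held for 36 h in medium with 0.5% fetal calf serum, which stops most fibroblasts before DNA replication, and serum was then raised to 20%. Polyadenylated RNA was sequenced in 2 time courses, named cycle 1 and cycle 2. Both begin 1 h before serum, and 63 libraries of cycle 1 up to 38 h and 32 of cycle 2 up to 27 h were used. The cycle 1 sample at 12.5 h is not analysed here. Each hour was sampled once per cycle, so the replicates of an hour are the 2 cycles, at the 29 hours after serum that they share, against 4 libraries of starved cells taken 1 h before serum and at 0 h. Equal hours were paired with no shift, though of the members timed below in both cycles all but Cdk6 rose later in cycle 2. Any lag between the cycles was not modelled and is part of the spread in every test. The labels do not say whether the cycles came from separate embryos or cultures, so p-values measure the spread between these time courses. The F test over hours and the tests at single hours treat the hours of a cycle as independent, and the tests on windows of hours treat its windows so. Neither hours nor windows of a time course are independent, so all these p-values can be too small.

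D-type cyclins are the cyclins that answer to growth factors. With Cdk4 or Cdk6 they start the phosphorylation of the retinoblastoma protein and its relatives, which releases the E2F transcription factors. Cyclin E with Cdk2 carries this on and helps to fire replication origins, and cyclin A2 takes over Cdk2 in S phase and later binds Cdk1. In the textbook order cyclin D rises before cyclin E and cyclin E before cyclin A.

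All values below are reads on the exons of a gene, scaled by the authors to 10000000 reads per library and not divided by gene length. The depth recovered from the values had a median of 10832557 reads and ran from 5067432 to 14500278. All 8 fibroblast markers examined were present, with summed values of 341216 to 503383 in starved libraries and 150957 to 479956 after serum. Summed markers of other cell types were far lower, at 37.2 to 272 for endothelial, 126 to 619 for leukocyte, 33.1 to 599 for epithelial and 373 to 2542 for skeletal muscle markers over all libraries. Of these markers Pecam1, Cdh5, Epcam, Myod1 and Myog were at 0 in some libraries, with medians of 3.86 to 22.7. The other markers measured for these cell types were above 0 in every library, with lowest values from 1.76 for Cdh1 to 306 for Des. The neural sum, most of it Nes, went from 983 to 1309 in starved libraries to 793 to 4980 after serum, and its part in the results was not tested. The cycle 1 library at 24.5 h stood apart: its values depended on base composition with a slope of 0.94 log2 units per 10 points of GC content, against -0.28 to 0.31 in the others. Ccne2, whose transcript has the lowest GC content of the members at 36.3%, was at 116 there against 603 at 24 h and 511 at 25 h, and Ccna2 was at 1922 against 3236 and 2964. Cdk4 stood above its neighbours there, at 7445 against 4935 and 6140. Cycle 2 has no library at that hour, so the tests did not use it, but the cycle 1 medians over 24 to 27 h and the timing of rises did. The next highest slope, 0.31, was that of the cycle 1 library at 26 h, which the tests did use. There Cdk2 and Ccnd3 differed from the mean of their adjacent libraries by -0.61 and -0.57 log2 units, and Ccnd1 by 0.06.

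Promoter sequence of 5 members was matched by symbol in a table from RefSeq (GRCm38.p6), Ccnd3 with 2 start sites and Cdk4, Cdk6, Ccne1 and Cdk2 with 1 each. The promoters of Ccnd1, Ccnd2, Ccne2 and Ccna2 were not analysed here. Each window runs from 250 bases before the start to 50 after it. Both strands were searched for the E-box CACGTG, bound by Myc among others, for TTTNNCGC, a form of the E2F consensus, and for GCGGGA, the core of many E2F sites, which can overlap the longer motif. The 3 promoters below are shown because they belong to members that were all higher than starved in late G1 in cycle 1 and differ in the motifs they hold. Capitals mark the matches. Cdk4 (chr10:127063285-127063584, + strand) held 4 copies of CACGTG, Ccne1 (chr7:38107441-38107740, - strand) held 2 of GCGGGA, and Cdk2 (chr10:128705002-128705301, - strand) held 3 of GCGGGA, of which the match in GCGGGAAA is also a match to TTTNNCGC on the other strand.
Cdk4: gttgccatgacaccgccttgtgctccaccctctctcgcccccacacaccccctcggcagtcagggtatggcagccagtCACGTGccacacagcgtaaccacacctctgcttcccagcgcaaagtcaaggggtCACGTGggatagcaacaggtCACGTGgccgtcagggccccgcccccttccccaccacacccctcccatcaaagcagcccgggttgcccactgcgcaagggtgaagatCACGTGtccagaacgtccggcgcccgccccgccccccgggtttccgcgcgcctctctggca
Ccne1: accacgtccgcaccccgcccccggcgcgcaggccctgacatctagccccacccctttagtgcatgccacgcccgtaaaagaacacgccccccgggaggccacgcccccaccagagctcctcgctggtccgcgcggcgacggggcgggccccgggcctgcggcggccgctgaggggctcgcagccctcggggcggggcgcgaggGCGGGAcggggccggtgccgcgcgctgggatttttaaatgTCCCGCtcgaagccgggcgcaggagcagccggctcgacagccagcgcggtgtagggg
Cdk2: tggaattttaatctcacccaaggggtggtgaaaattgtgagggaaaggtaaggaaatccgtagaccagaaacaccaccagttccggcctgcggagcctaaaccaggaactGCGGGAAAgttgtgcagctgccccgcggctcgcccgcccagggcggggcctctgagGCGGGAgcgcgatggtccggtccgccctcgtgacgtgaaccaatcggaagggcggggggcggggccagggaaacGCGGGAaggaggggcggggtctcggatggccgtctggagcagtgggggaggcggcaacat
Of 32851 promoters of this length 7.15% held CACGTG at least 1 time and 0.0244% held it at least 4 times. TTTNNCGC was in 5.17%, GCGGGA in 20% and at least 2 copies of GCGGGA in 4.96%. The Cdk6 promoter held 1 CACGTG, 1 TTTNNCGC and 2 GCGGGA, and neither Ccnd3 promoter held any of the 3. These matches describe the letters in these windows only.

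The starved cells of the 2 cycles did not start from the same levels. Ccna2 was at 911 and 683 in the starved libraries of cycle 1 and at 2687 and 2307 in those of cycle 2, a ratio of the cycle means of 3.13. That ratio exceeded those of 98.2% of all genes. Ccne2 stood at 184 and 164 against 521 and 451, a ratio of 2.79, and Ccne1 at 234 and 218 against 491 and 602, a ratio of 2.42. Both starved libraries of cycle 2 were above both of cycle 1 for 7 of the 9 members, where this held for 29.5% of all genes. The ratio was 1.53 for Ccnd1, 1.52 for Cdk2, 1.33 for Cdk4 and 1.10 for Ccnd2, and 0.99 for Cdk6, whose libraries overlapped between the cycles. Ccnd3 was lower in both starved libraries of cycle 2, with a ratio of 0.75, as were 38.8% of all genes. Every change below is taken against the starved libraries of the same cycle, by fitting the cycle as a block. The per-cycle values are printed because both these starts and many later levels differed between the cycles. The part of each in the fold changes was not tested.

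Per kilobase of the longest annotated transcript the members covered a wide range. The median level over all libraries was 2221 for Cdk4, 671 for Ccnd2, 648 for Ccna2, 549 for Ccnd3, 447 for Ccnd1, 401 for Ccne1, 266 for Cdk2 and 170 for Ccne2. Cdk6 was far below the others at 7.95, and its reads per 10000000 never went above 73.5. Over the libraries the ranges of neighbours in this order overlapped, so it holds for the medians only, except that every library had Cdk4 above and Cdk6 below all other members. The values of Ccnd3, Ccne2 and Cdk2 behave as means over transcripts, so their places in the order are approximate.

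**Figure D1:**
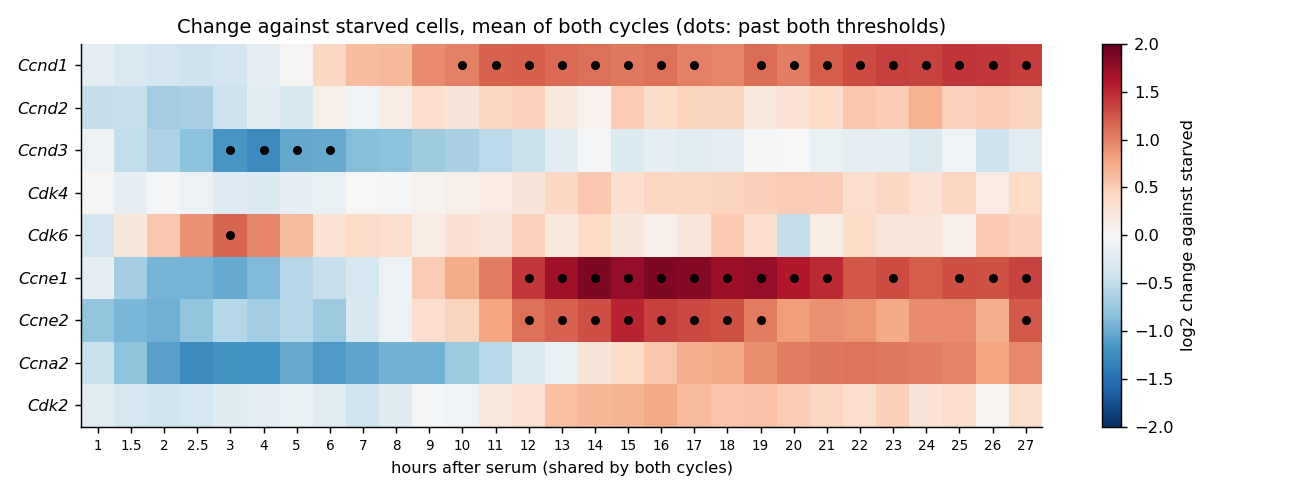
Log2 change of each member (rows) against starved cells at each shared hour after serum (columns), as the mean of both cycles, with red for higher and blue for lower. Black dots mark hours with an adjusted p under 0.05 and a change above 1 in size: 17 hours for Ccnd1, 14 for Ccne1, 9 for Ccne2, 4 falls for Ccnd3 and 1 rise for Cdk6.

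A limma F test over all shared hours asked which members differed from starved cells at any time (log2(value + 1), Benjamini-Hochberg adjusted p under 0.05 over all genes and, at the hour of the largest change, a log2 change of more than 1 in size). Of the 9 members 4 passed with a rise and 2 with a fall, where 15.5% of all genes passed with a rise and 37.0% with a fall, 52.5% in all. The rises were in Ccne1 (1.86 at 16 h, adjusted p = 5.9e-06), Ccne2 (1.52 at 15 h, 1.6e-06), Ccnd1 (1.43 at 25 h, 3.1e-05) and Cdk6 (1.16 at 3 h, 0.0034). The falls were in Ccnd3 (-1.27 at 4 h, 4.9e-09) and Ccna2 (-1.26 at 2.5 h, 0.00053). Cdk2, Ccnd2 and Cdk4 varied over the hours as well, with adjusted p of 0.00024, 1.4e-06 and 0.0019, but their largest changes of 0.76, -0.70 and 0.54 were under the size threshold. The median largest change was 0.76 over the members and -0.88 over all genes. Under the rule that a gene be above 2 times or below 0.5 times its starved mean at the same hour in both cycles, no member passed as higher and Ccnd3, Ccne1 and Ccna2 passed as lower, where 14.8% and 41.9% of all genes passed. In cycle 1 alone 6 members passed as higher, Ccnd1, Cdk6, Ccne1, Ccne2, Ccna2 and Cdk2, where 32.1% of all genes did, and in cycle 2 alone none did, where 23.0% of all genes did. As lower, 3 members passed in cycle 1 alone (Ccnd3, Ccne1 and Ccna2) and these and Ccne2 in cycle 2 alone, where 60.6% and 49.0% of all genes passed. In bulk RNA a smaller share of cells that carry a transcript and less of it per cell cannot be told apart.

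Cyclin D1 is the D-type cyclin most closely tied to growth factor signalling, and Ccnd1 (chr7:152115836-152125774 of NCBIM37, - strand) was lowest in the first hours after serum and highest late in the time courses. In cycle 1 it went from 681 and 662 in starved cells to a low of 524 at 2 h, passed 848 at 4 h and 1465 at 6 h, and had a median of 2525 over 11 to 14 h and of 3318 over 24 to 27 h. In cycle 2 it went from 1037 and 1015 to a low of 592 at 3 h, and its medians in the same windows were 1377 and 1415. Between these windows, at 15 to 18 h, the medians were 2425 and 1191, so the climb was not steady in either cycle. The 11 to 14 h and 24 to 27 h libraries were above both starved libraries of their cycle in each cycle, but the rise was 4.94 times the starved mean in cycle 1 and 1.38 times in cycle 2 by 24 to 27 h. Ccnd1 was called as higher at 17 of the 29 hours, from 10 h on, with 18 h as the gap (0.97 ± 0.37 SE). Of all genes 18.6% were called as higher at 1 or more shared hours and 44.8% as lower, and at a given hour 2.25% to 7.6% as higher and 2.94% to 18.6% as lower.

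Averaged per cycle over windows of hours, Ccnd1 was higher than starved at 19 to 23 h (log2 change 1.20 ± 0.42 SE, n = 2 cycles, limma adjusted p = 0.041) and at 24 to 27 h (1.40, adjusted p = 0.023). Of all genes 6.19% and 5.76% were called as higher in these windows, against 4.94%, 7.56%, 7.01% and 6.59% at 1 to 3, 4 to 6, 7 to 10 and 11 to 14 h. The changes at 24 to 27 h were 2.32 in cycle 1 and 0.48 in cycle 2. Without the cycle as a block neither window of Ccnd1 passed (adjusted p = 0.118 and 0.075), and with a pseudocount of 0.1 the first had an adjusted p of 0.052.

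Ccnd2 and Ccnd3 were not called as higher than starved at any hour. Ccnd2 (chr6:127075797-127101066, - strand), a D-type cyclin used in many tissues beside cyclin D1, started high, at 2940 and 2818 in cycle 1 and 3230 and 3105 in cycle 2. At 2 h it was lower, at 1706 in cycle 1 and 2027 in cycle 2, with a log2 change of -0.70 ± 0.19 SE (limma adjusted p = 0.0028). It was first back above both starved libraries at 3.5 h in cycle 1 and at 9 h in cycle 2 and reached medians of 3986 and 4533 over 24 to 27 h, a log2 change of 0.52 ± 0.18 SE (adjusted p = 0.041). That late change was close to equal in the cycles, at 0.56 and 0.48, and under the size threshold.

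Ccnd3 (chr17:47642000-47736632, + strand) was the member with the clearest fall. Its values came out as whole reads only after multiplication by 3, as a mean over 3 transcripts would. It went from 1766 and 1677 in starved cells to a lowest value of 631 at 3.5 h in cycle 1, and from 1329 and 1267 to 571 at 4 h in cycle 2. Every library from 4 to 10 h in both cycles was below both starved libraries of its cycle. The fall was called at 3, 4, 5 and 6 h and averaged -1.10 ± 0.14 SE over 4 to 6 h (limma adjusted p = 0.00029, where 18.1% of all genes were called as lower, against 10.4% at 1 to 3 h and 15.3% to 18.2% in the later windows), with -1.34 in cycle 1 and -0.87 in cycle 2. It then climbed back, and over 19 to 23 h its change against starved was -0.11 ± 0.14 SE (adjusted p = 0.52). With TMM rescaling the change at 4 to 6 h was -0.92, under the size threshold.

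These shifts changed the makeup of the D-type cyclin RNA in cycle 1. Per kilobase, Ccnd1 made up 12.0% of the sum of the 3 D-type cyclins in the starved cells of cycle 1 and 38.2% over 24 to 27 h, while Ccnd3 went from 54.3% to 29.7% and Ccnd2 from 33.7% to 32.1%. In cycle 2 Ccnd1 moved only from 19.0% to 22.8%, Ccnd3 went from 42.5% to 30.8% and Ccnd2 from 38.5% to 46.4%. The share of Ccnd3 was thus smaller late in both cycles, with more Ccnd1 in cycle 1 and more Ccnd2 in cycle 2. These shares were not tested. The values of Ccnd3 behave as a mean over transcripts, so its share is not on the same footing as those of Ccnd1 and Ccnd2.

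Of the D-type kinases, Cdk4 moved less than Ccnd1 and Ccnd3, and Cdk6 had a short rise. In cycle 1 the median of Cdk4 over 19 to 23 h was 1.77 times its starved mean, against 1.40 times for Ccnd2. Cdk4 (chr10:126500590-126504976, + strand), the main partner of the D-type cyclins in fibroblasts, was already at 3531 and 3132 in the starved cells of cycle 1 and at 4561 and 4333 in those of cycle 2. In cycle 1 every library from 7 h to 27 h was above both starved libraries, with a median of 5908 over 19 to 23 h. In cycle 2 the level fell below both starved libraries from 1 h to 10 h and then returned, with a median of 4714 over 19 to 23 h. The largest mean change was 0.54 ± 0.18 SE at 14 h (limma adjusted p = 0.014).

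Cdk6 (chr5:3343893-3523218, + strand), the other D-type kinase, was at 18.0 and 30.1 in the starved cells of cycle 1 and at 27.7 and 19.8 in those of cycle 2. It rose to 63.4 at 3 h and 73.5 at 4.5 h in cycle 1 and to 45.4 at 3 h in cycle 2, and from 7 h on it was back among values of 16.1 to 38.4 in both cycles up to 27 h. The change at 3 h was 1.16 ± 0.25 SE (adjusted p = 0.00018), with 0.92 at 2.5 h and 0.97 at 4 h under the size threshold. Its counting error had a median of 17.7% per library, against 1.43% for Cdk4, and with a pseudocount of 10 its largest change no longer passed the size threshold.

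**Figure D2:**
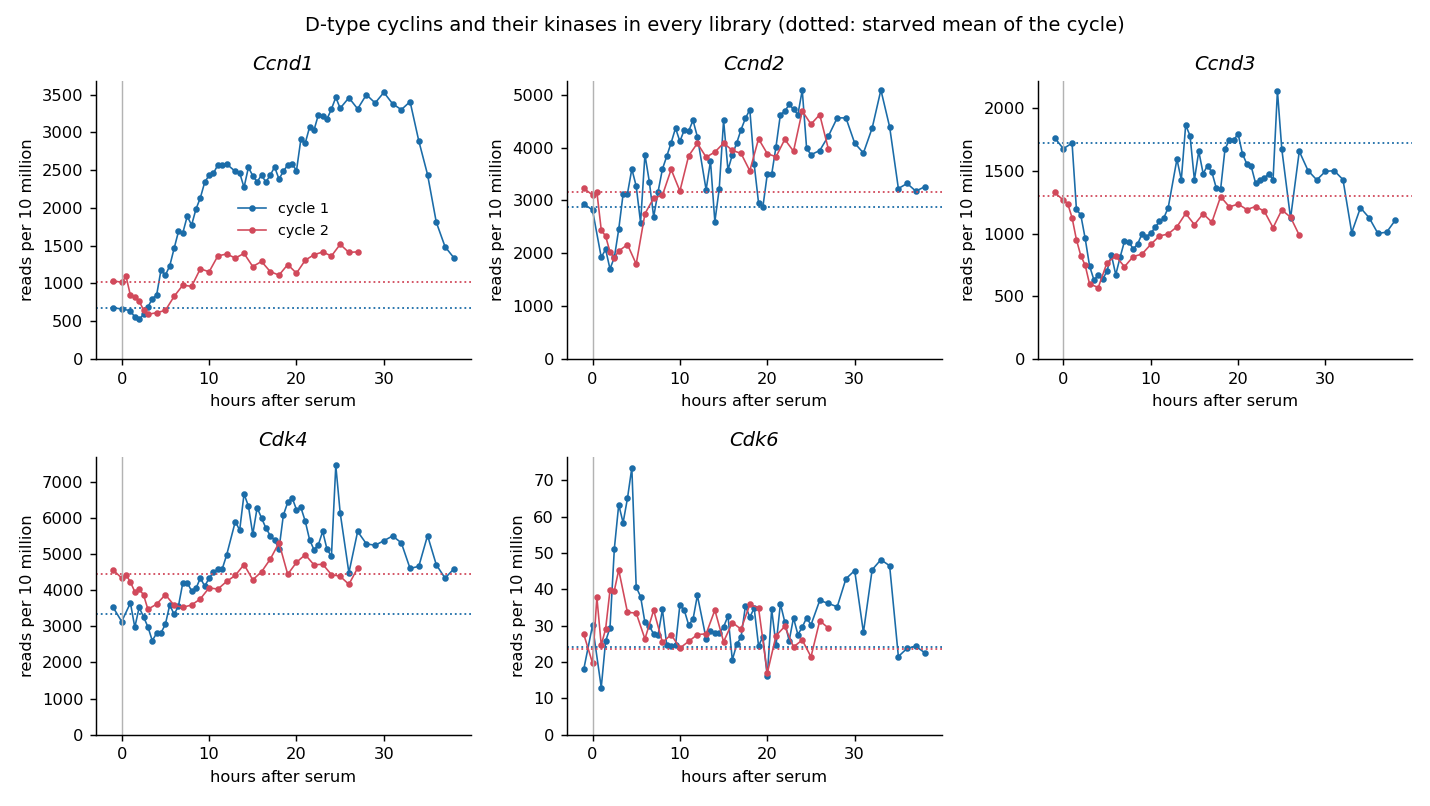
Reads per 10000000 of the D-type cyclins and their kinases in every library (vertical axes from 0) against hours after serum, cycle 1 in blue and cycle 2 in red, with the starved mean of each cycle dotted. Ccnd1 climbs to medians of 3318 and 1415 over 24 to 27 h, Ccnd3 dips below 700 near 4 h in both cycles, and Cdk6 peaks at 73.5 and 45.4.

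The E-type cyclins stood below their starved level in the hours after serum and rose through late G1. Ccne1 (chr7:38883003-38892553, - strand), cyclin E1, went from 234 and 218 in the starved cells of cycle 1 to a low of 101 at 2 h, was still at 189 at 6 h, and then climbed through 632 at 10 h and 1228 at 12 h to 1853 at 14 h. In cycle 2 it went from 491 and 602 to a low of 267 at 3 h, was at 345 at 6 h and 541 at 10 h, and reached 1028 at 18 h. In both cycles it was lower again after the peak, with medians of 988 and 797 over 24 to 27 h. All libraries of both cycles from 11 h to 27 h were above both starved libraries of their cycle.

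Ccne1 was called as higher than starved at 14 hours between 12 and 27 h, with 22 and 24 h as the gaps. Over 15 to 18 h its log2 change was 1.79 ± 0.58 SE (n = 2 cycles, limma adjusted p = 0.031, where 6.28% of all genes were called as higher), with 2.76 in cycle 1 and 0.82 in cycle 2. The early decline did not pass the test at any hour (lowest adjusted p = 0.12), although the value at 3 h was below 0.5 times the starved mean in both cycles.

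Ccne2 (chr4:11118498-11131926, + strand), cyclin E2, took nearly the same course at a lower level. Its values are averages over 2 transcripts. In cycle 1 it went from 184 and 164 to 94.8 at 1 h and up to 1144 at 15 h, and in cycle 2 from 521 and 451 to 196 at 6 h and up to 643 at 14 h and 684 at 27 h. It was called as higher at 9 hours, from 12 to 19 h and at 27 h, and over 15 to 18 h its change was 1.37 ± 0.46 SE (limma adjusted p = 0.037), with 2.47 in cycle 1 and 0.27 in cycle 2. Without the 0 h libraries of both cycles the adjusted p was 0.051. Per kilobase, cyclin E1 made up 66.1% and 62.8% of the sum of both E-type cyclins in the starved cells of cycles 1 and 2 and 70.5% and 71.2% over 15 to 18 h. The larger share by this measure stayed with Ccne1. Its values came out as whole reads and those of Ccne2 as averages over transcripts, so the shares compare unlike values.

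Cdk2 (chr10:128134995-128142107, - strand), the kinase that both cyclin E and cyclin A activate, had its largest changes within the hours at which both E-type cyclins were called, and was itself called at none. Its values are averages over 2 transcripts. In cycle 1 it went from 440 and 401 in starved cells to 332 at 1.5 h and 1042 at 15 h, with every library from 11 h to 27 h above both starved libraries. In cycle 2 it went from 701 and 578 to 387 at 7 h and 744 at 16 h, and from 11 h to 27 h only 2 of 17 libraries were above both starved libraries. Its change had an adjusted p under 0.05 at 13 to 19 h and was largest at 16 h (0.76 ± 0.24 SE, adjusted p = 0.0093).

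Cyclin A2, the cyclin of S phase and G2, fell early and had the latest increase of the members. Ccna2 (chr3:36463788-36471072, - strand) went from 911 and 683 in the starved cells of cycle 1 to 355 at 2 h and stayed between 309 and 603 from 2 h to 10 h, then rose through 986 at 12 h and 1876 at 14 h to 3540 at 21 h. In cycle 2 it went from 2687 and 2307 to 1097 at 2.5 h, stayed between 1065 and 1320 until 13 h, and reached 2341 at 20 h and 2730 at 27 h. In cycle 1 all libraries from 15 h to 27 h were above both starved libraries of their cycle, and in cycle 2 only 1 of the 13 libraries in these hours was. No single hour passed against starved in either direction, with a lowest adjusted p of 0.073 for the early decline and 0.12 for the late increase. The sign of the F call rests on which of 2 changes of similar size is larger, -1.26 at 2.5 h or 1.09 at 22 h. With the libraries rescaled by TMM, which moves log2 changes of all genes by up to 0.28, the larger change was the increase of 1.16 (1.15 with median of ratios rescaling), and it was also the larger without the library 1 h before serum or without that at 0 h in cycle 2, at 1.30 and 1.23.

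**Figure D3:**
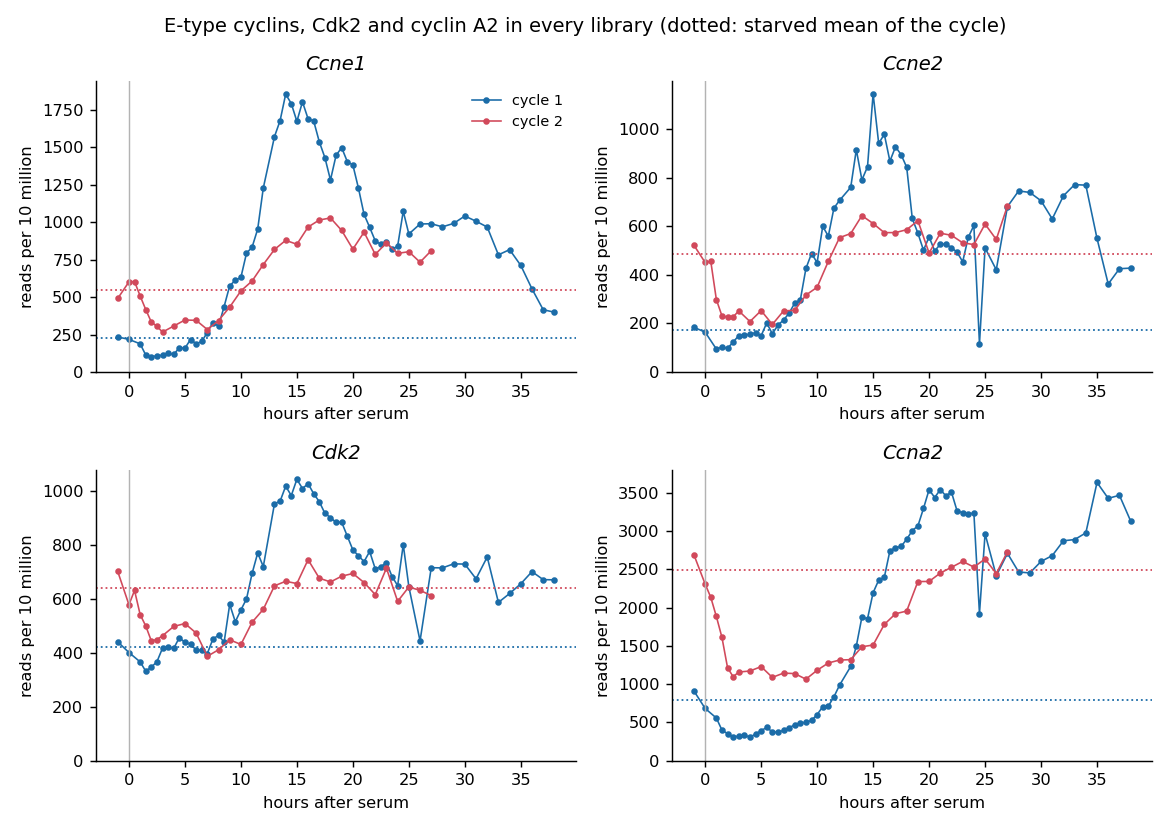
Reads per 10000000 of the E-type cyclins, Cdk2 and cyclin A2 in every library (vertical axes from 0) against hours after serum, cycle 1 in blue and cycle 2 in red, with the starved mean of each cycle dotted. All 4 dip within the hours after serum and then rise, Ccne1 to 1853 and 1028 and Ccna2 to its highest values after 19 h, and the cycle 1 library at 24.5 h lies off the line for Ccne2 and Ccna2.

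Because most members had low values soon after serum, the later windows were also compared with 4 to 6 h, a comparison added after the data were seen. Of 36 such contrasts of members 11 were called, all of them rises, against 5 of 63 contrasts with starved cells, 4 rises and 1 fall. The base was chosen knowing those low values, which favours rises. The counts and p-values against 4 to 6 h are thus descriptions, and the 2 counts are not on an equal footing. Ccne1 was higher than at 4 to 6 h in all 4 windows from 11 to 14 h on, largest at 15 to 18 h (log2 change 2.43 ± 0.58 SE, limma adjusted p = 0.013). Ccne2 was likewise higher in all 4 (2.03 ± 0.46 SE at 15 to 18 h, adjusted p = 0.010). Ccna2 was higher at 19 to 23 h (2.15 ± 0.62 SE, adjusted p = 0.024) and 24 to 27 h (2.06, adjusted p = 0.029) and did not pass at 15 to 18 h (1.72, adjusted p = 0.063). Ccnd1 passed at 24 to 27 h (1.32 ± 0.42 SE, adjusted p = 0.037). Without the cycle as a block these calls of Ccna2 (adjusted p = 0.058 and 0.067) and Ccnd1 (0.112) did not pass. In the windows at 11 to 14, 15 to 18, 19 to 23 and 24 to 27 h, 3.98%, 6.59%, 7.88% and 7.17% of all genes were called as higher than at 4 to 6 h, and 4.46%, 6.91%, 8.66% and 9.88% as lower. Ccnd3, called in none, was higher by 0.99 ± 0.14 SE at 19 to 23 h, just under the size threshold, with an adjusted p of 0.00096.

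The log2 change of Ccnd1 from 4 to 6 h to 24 to 27 h was 1.59 in cycle 1 and 1.05 in cycle 2, and that of Ccne2 to 15 to 18 h was 2.64 and 1.42. Those of Ccne1 to 15 to 18 h were 3.32 and 1.53 and those of Ccna2 to 19 to 23 h 3.23 and 1.08, so cycle 1 had the larger value for all 4. Whether the changes differ between the cycles was not tested, since each cycle gives 1 value. Between successive windows no contrast of a member out of 54 was called in the limma fit, where a log2 change above 0.5 in size was asked for in place of 1, and 5 had an unadjusted p under 0.05. The share of all genes called was 10.9% as higher and 9.04% as lower at 4 to 6 h, 1.55% and 0.868% at 7 to 10 h, and at most 0.0126% in either direction in the later windows.

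The order of the rises was read from the hour at which a member, on a log2 scale and after a running median of 3 libraries, crossed the midpoint between its base and its peak before 27 h. With the starved level as the base, a midpoint in both cycles was found for Cdk6 (2.27 and 1.59 h) and Ccne1 (10.0 and 12.3 h) only, because the other 7 peaked below 1.5 times their starved mean in cycle 2. In cycle 1 alone the midpoints came at 6.15 h for Ccnd1, 8.96 h for Ccne2, 10.8 h for Cdk2 and 13.8 h for Ccna2.

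With the lowest value before the peak as the base, 7 members could be timed in both cycles. Ccnd1 crossed its midpoint at 5.83 and 6.80 h, a mean of 6.32 ± 0.69 h (SD, n = 2). Ccne1 crossed at 8.53 and 10.2 h and Ccne2 at 8.56 and 10.3 h. Cdk2 followed at 10.5 and 11.4 h, and Ccna2 at 12.4 and 15.9 h, a mean of 14.1 ± 2.5 h. The order from Ccnd1 through Ccne1 and Ccne2 to Cdk2 and then Ccna2 was the same in both cycles, and each of these midpoints came later in cycle 2. In cycle 2 the midpoints of Ccnd1, Ccne2, Cdk2 and Ccna2 lay below the starved level. Their lows were 0.60, 0.43, 0.64 and 0.46 times starved and their peaks 1.38, 1.41, 1.07 and 1.09 times. For these members the cycle 2 order is that of a return toward the starved level more than of a rise above it.

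The interval from Ccnd1 to Ccne1 was 2.69 h in cycle 1 and 3.44 h in cycle 2, and that from Ccne1 to Ccna2 was 3.83 h and 5.69 h. Ccne1 and Ccne2 were 0.032 h and 0.046 h apart, less than the spacing of the libraries. Other settings placed Ccne2 first in both cycles, by 0.90 and 0.35 h at a lower crossing level, 0.80 and 0.79 h at a higher one and 1.13 and 0.57 h on a linear scale, and without smoothing Ccne1 came first by 0.16 and 0.33 h. The order of these 2 cyclins thus depended on the setting. Cdk2 came 1.94 h and 1.12 h after Ccne1, and on a linear scale in cycle 1 this interval turned to -0.52 h. Ccnd2 had midpoints at 3.43 and 7.33 h, before Ccnd1 in cycle 1 and after it in cycle 2. Cdk6 came first of all, at 2.30 and 0.89 h. The order was not tested and is a description.

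**Figure D4:**
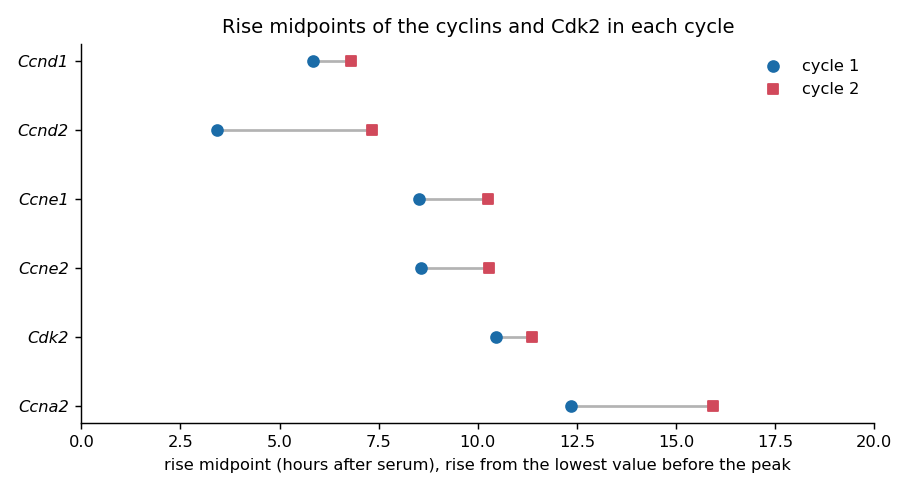
Hour after serum (horizontal axis) at which each cyclin or Cdk2 crossed the midpoint of its rise from its lowest value to its peak, cycle 1 as blue circles and cycle 2 as red squares. In both cycles Ccnd1 lies before Ccne1 and Ccne2, and these before Cdk2 and Ccna2, with midpoints from 5.83 h for Ccnd1 to 12.4 h for Ccna2 in cycle 1 and from 6.80 to 15.9 h in cycle 2. In cycle 2 all the midpoints shown but that of Ccne1 lie below the starved level.

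The early declines, of which that of Ccnd3 alone was called at single hours, were timed in both cycles for 4 cyclins. A decline was timed before the lowest value and an increase from it onward, so the method set the order of these 2. The midpoint of the decline came at 0.49 and 0.92 h for Ccne2, 1.15 and 1.35 h for Ccna2, 1.18 and 1.55 h for Ccne1 and 2.27 and 1.77 h for Ccnd3. Cycle 1 has no library between 0 and 1 h, so its 0.49 h was read off a straight line. The differences among Ccne2, Ccna2 and Ccne1 were near or below the spacing of the libraries, so their order is not resolved. Lowest smoothed levels relative to starved were 0.40 and 0.46 for Ccna2, 0.49 and 0.56 for Ccne1, 0.56 and 0.43 for Ccne2 and 0.37 and 0.46 for Ccnd3. In each of these 4 cyclins the lowest level of cycle 2 was thus within 1.5 times that of cycle 1.

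Cycle 1 ran on to 38 h, where it has no replicate and no test was made. Ccnd1 stayed between 3300 and 3528 from 28 to 33 h (6 libraries, median 3397) and was at 1341 to 2440 at 35 to 38 h (4 libraries, median 1649). Ccne1 went from a median of 980 to 485 and Ccne2 from 732 to 426 over the same hours. Cdk6 went from 44.1 to 23.2 and Ccnd2 from 4466 to 3242. For these 5 members every later library was below every earlier one, which held for 8.74% of all genes. Ccna2 moved the other way, from a median of 2640 to 3446, with every later library above the earlier ones as in 18.2% of all genes. Cdk2 had medians of 721 and 670 with overlapping ranges.

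The neighbours of these genes in the pathway were summarised from lists chosen along with the members, and their counts are to be read against the 15.5% of all genes that rose and the 37.0% that fell by the same F call, with a median largest change of -0.88. Of 7 Cdk inhibitors, which block cyclin-Cdk complexes, 1 rose, 5 fell and 1 did not pass the F test, with a median largest change of -1.70. Cdkn1a (p21) rose by 1.80 at 2 h and Cdkn1c (p57) had the largest fall (-3.65 at 24 h). Of 13 pocket proteins and E2F factors, the targets of the kinases, 3 rose and 4 fell (median 0.38). E2f7, an E2F that represses, rose by 1.82 at 15 h and Rbl2 (p130), a pocket protein of resting cells, had the largest fall (-1.71 at 5 h).

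Of 17 E2F target genes of the G1/S transition 14 rose and 2 fell, with a median largest change of 1.34, again beside 15.5% and 37.0% of all genes. Cdt1, a licensing factor, had the largest rise (2.69 at 1.5 h) and Tk1, thymidine kinase, the largest fall (-2.35 at 4 h). Of 12 genes for activation and turnover of the complexes 2 rose and 2 fell (median -0.42), with the phosphatase Cdc25a at 1.26 at 13 h and the F-box gene Fbxo31 at -1.78 at 2 h. Of 4 G2/M cyclins and kinase 3 rose and 1 fell, with Ccnf at 1.80 at 22 h and Ccnb2 at -1.40 at 6 h. Of 8 growth signal genes upstream of cyclin D 3 rose and 3 fell, with Fosl1 at 4.79 at 2.5 h and Fos at -6.51 at 27 h. All these changes are log2 changes against starved cells at the hour of the largest change, from the limma fit, and passed at an adjusted p under 0.05. In all these lists rose and fell give the sign at that hour only. A gene counted as fallen can be above starved at other hours, and the reverse. The 0.5 h library, sampled in cycle 2 only, was not in the fit.

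Over the libraries after serum, 61 in cycle 1 and 30 in cycle 2, some of the 11882 genes with a mean value of at least 20 had time courses very close to those of members. Libraries of a cycle share a culture history and are not independent, so these correlations are descriptions. Ccne1 was closest to Mcm3 (Pearson r 0.97 in both cycles), Mcm5 and Rpa1. Ccne2 was closest to Mcm4 (0.94 and 0.96), Hells and Ubr7. Ccna2 was closest to Kif4 (0.99 and 0.98), Ncapg and Prc1, and Cdk2 to Rad51ap1 (0.92 and 0.93), Tcf19 and Mybl2. Ccnd1 was closest to Mthfd1 (0.96 and 0.95), Camk2g and Ddah1, Ccnd2 to Xpo5 (0.94 and 0.96), Atp2a2 and Fubp3, Ccnd3 to Slc25a11 (0.91 and 0.95), Maz and Sumf2, and Cdk4 to Dut (0.96 and 0.94), Ethe1 and Nt5dc2. No gene followed Cdk6 as closely, the nearest being Sept9 at 0.56 in both cycles, then Ak4 and Ano6. The low values of Cdk6 carry a large counting error, which lowers any correlation, and its part here was not tested. No gene was among the nearest 3 of 2 members.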

How the data were processed

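RNA of 96 samples was deposited as a single table of genes by libraries. The authors aligned single-end reads of 50 bases to mm9 (NCBIM37) with STAR and counted those on exons with HOMER, on both strands although the kit keeps strand, so reads of an overlapping antisense gene cannot be told apart. The deposited values are a normalized signal, with each library scaled by the authors to 10000000 reads. Of the columns 95 were matched to libraries by name, and 1, whose name gives 12.5 h but no cycle, was not used. Between 94.2% and 96.2% of low values were whole multiples (within 0.1) of the value of 1 read, which gave the depth. Ccnd3, Ccne2 and Cdk2 were whole only after multiplication by 3 or 2, as means over transcripts would be. No 2 libraries were identical.

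The members and lists were chosen with earlier results of these data known. As the unit is not a count, log2(value + 1) was tested, with the cycle as a block, by limma 3.58.1 (R 4.3.3). Samples of a cycle share a time course by their labels, and 96.3% of 406 pairs of hours had cycle differences that correlated above 0.1 over 11882 genes (median 0.46, lowest -0.07). The F test over hours used 62 libraries and had 31 residual degrees of freedom, and the fit of window means had 7. The former counts serial hours of the same time courses as separate. The latter takes 1 value per cycle and window but still counts serial windows as separate. Its SE rests on the spread over all windows, not on the 2 values of a window alone. Hours sampled in 1 cycle alone were left out of tests. A trend over GC content used the 89.6% of genes with a value. Genes named are the 9 members, the 3 genes most correlated with each, and the largest rise and fall of each list. Alternatives covered the block, pseudocount, a minimum mean of 10, scaling, GC trend, base of the rise, each starved library, each cycle, and edgeR 4.0.16 on whole reads, which called 2248 rises and 5983 falls over all genes. On simulated data of 15895 genes the F test called 100 of 100 genes changed 4-fold, 95 of 100 changed 2-fold and 6 unchanged ones, the contrast of 11 to 14 h with starved cells 100, 45 and 14, and edgeR 100, 93 and 0. Other steps used Python 3.11.15, pandas 2.3.3, numpy 2.4.6 and matplotlib 3.10.9. Intervals of counting error cover counting error only.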

Additional observations from a re-analysis of the deposited data

Results flagged for a closer look

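In 6 members a window was found in which every shared hour of cycle 1 lay above the starved mean of its cycle and every shared hour of cycle 2 below it. The difference between the cycles was not tested, as each cycle gives 1 time course. For Ccnd1 at 4 to 6 h the mean log2 change was 0.73 in cycle 1 and -0.57 in cycle 2, a difference of 1.30, and for Ccnd2 in the same hours 0.24 and -0.52, a difference of 0.77. At 7 to 10 h the values were 0.34 and -0.25 for Cdk4, a difference of 0.59, 0.87 and -0.48 for Ccne1, a difference of 1.35, and 0.91 and -0.74 for Ccne2, a difference of 1.65. At 15 to 18 h Ccna2 was at 1.69 and -0.48, the widest of these differences at 2.17. The starved level was higher in cycle 2 than in cycle 1 for all 6, by 1.10 times for Ccnd2 to 3.13 times for Ccna2, and the part of that level in these differences was not tested. No starved library of any member lay far enough from the other 3 to be singled out. That search pooled both cycles, whose starved levels differed, so it could hardly find a library that stood apart within its own cycle.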

How the results depend on the processing

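Each hour has 2 replicates, so the tests see large and shared changes best, and values of Cdk6 are limited by depth. Of 311 values of single members under other settings 286 were counted as the same, 17 kept only the direction and 8 called changes turned sign. For a member not called in the main fit, the same meant not called, whatever the sign. The largest change of Ccnd2 thus went from -0.70 to 0.77 under TMM rescaling. Without cycle 1 those of Cdk4 and Cdk2 went from 0.54 and 0.76 to -0.36 and -0.72. Without the block for the cycle pairing, the members gave the same 4 rises and 2 falls in the F test, but 3 instead of 5 window calls against starved cells. With a pseudocount of 10 there were 8. Between successive windows 1 call appeared under TMM rescaling and 1 with the GC trend removed. TMM and median of ratios rescaling each left 1 fall in the F test, with Ccna2 as a rise of 1.16 and 1.15. The cause was not tested. Leaving out single starved libraries or a whole cycle gave 0 to 2628 rises and 0 to 5976 falls over all genes, and 0 to 5 rises and 0 to 2 falls of members. The 0 values come from leaving out a cycle, where 1 residual degree of freedom remains. The largest change then ranged from -0.79 to 2.36 for Ccnd1, -1.02 to 3.03 for Ccne1, -1.30 to 2.71 for Ccne2 and -1.51 to 2.16 for Ccna2, the low ends of the first 3 without cycle 1. The fold rule gave 4483 genes above it at 1.5-fold, 1212 above and 4156 below at 3-fold, and 1453 above and 4246 below with a minimum mean of 10. Of members, 2 were above and 5 below at 1.5-fold, 0 below at 3-fold, 1 above with the 0 h library alone, and 1 above and 0 below under TMM. Leaving out a cycle gave 3657 to 5103 genes above and 0 to 6 members. The midpoint of Cdk6 moved to 1.36 h without smoothing and 1.41 h at a lower crossing level. That of Ccne1 moved to 13.2 h at a higher level and 9.39 h from the lowest value. With the lowest value as the base and the higher level, Cdk2 followed Ccne1 by 0.48 h. With the lowest value as the base, the intervals from Ccnd1 to Ccne1 and from Ccne1 to Ccna2 were above 0 in both cycles under all 8 settings that timed them. With the starved base they could be read in cycle 1 only.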
